A study of Homo sapiens with 9 samples.

Results

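Of the 24019 QKI‐5 peaks on nuclear chromosomes, 1508 (6.28%) lay in a gene of a long non-coding RNA (lncRNA) other than NEAT1, MALAT1 and OIP5-AS1. A peak was taken when its centre fell, on its own strand, inside a gene that GENCODE release 44 on hg19 types as lncRNA and outside every protein-coding gene of that strand. The rule used annotation only, and no height or sequence. The 1508 peaks fell in 461 of the 18702 annotated lncRNA genes (2.46%), whereas 4750 of the 20163 protein-coding genes (23.6%) held a peak. By the rule, lncRNA genes inside protein-coding genes of their strand could hold none, so the 2 shares are not counted alike. A peak gives the place of crosslinked fragments and does not measure how much of the RNA the cells made, and the peak list holds no expression levels, so the labelled cell type was not checked against marker genes.

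The peaks came from HITS‐CLIP, an assay that fixes proteins to bound RNA by ultraviolet irradiation of intact cells, pulls down 1 protein with an antibody and sequences the fragments attached to it. The cells were mesHMLE, mesenchymal-like cells obtained from HMLE, a line of human mammary epithelial cells, whose cell type the labels give as "Breast cancer". TGF-β1 drove the parent HMLE cells through EMT, at 2.5 ng/ml over 14 days or longer in the stated protocol, and none was added for the mesHMLE cells themselves. After irradiation with 600 mJ/cm2, 7 libraries were made with an antibody specific for QKI‐5 and 2 from size-matched input lysate. The immunoprecipitated libraries carried 3 technical replicate numbers, 3 were cut at the gel position of the QKI monomer and 4 at that of the presumptive dimer, and 1 dimer library used SuperScript IV as reverse transcriptase. All libraries came from this 1 line, without a second condition. They were pooled into 1 peak list before peaks were called, so no value here has a spread between replicates, and depth per library is unknown. Intervals are 95% Wilson intervals over peaks and cover counting error only. Peaks of 1 gene share their RNA and are not replicates.

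QKI is an RNA-binding protein of the STAR family that binds RNA through a KH domain and its flanking QUA regions and prefers the sequence ACUAAC, written ACTAAC in DNA letters, often with a second short core nearby. QKI‐5 is its mainly nuclear isoform and is known for work in alternative splicing and in the formation of circular RNAs. Long non-coding RNAs are transcripts without a long open reading frame, many of which stay in the nucleus, are spliced like messenger RNAs, or serve as hosts from whose introns and exons microRNAs or small nucleolar RNAs are cut.

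The 8 tallest lncRNA peaks with ACTAAC are printed here as the strongest cases of the known motif in these RNAs, each 5′ to 3′ on the strand of the peak, from GRCh37 (hg19), with every ACTAAC in capitals. Height is the number the authors' peak caller gave the peak over the pooled libraries. The peaks in MIAT lay in exons, those in MFSD14CP and MIR924HG in introns.
MFSD14CP, chr9:99704425-99704508, minus strand, height 280: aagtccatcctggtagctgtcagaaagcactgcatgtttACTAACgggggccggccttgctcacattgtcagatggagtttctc
MIAT, chr22:27067249-27067446, plus strand, height 262: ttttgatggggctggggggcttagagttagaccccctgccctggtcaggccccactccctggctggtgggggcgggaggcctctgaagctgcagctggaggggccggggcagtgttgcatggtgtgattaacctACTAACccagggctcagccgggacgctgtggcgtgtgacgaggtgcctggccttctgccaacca
MIR924HG, chr18:37035737-37035856, minus strand, height 252: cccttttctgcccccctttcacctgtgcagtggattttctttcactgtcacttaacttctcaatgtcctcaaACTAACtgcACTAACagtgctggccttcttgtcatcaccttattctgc
MIAT, chr22:27069296-27069445, plus strand, height 223: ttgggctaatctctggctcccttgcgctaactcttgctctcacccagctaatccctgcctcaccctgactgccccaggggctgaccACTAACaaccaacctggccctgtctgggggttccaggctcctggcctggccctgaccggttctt
MIAT, chr22:27067448-27067616, plus strand, height 200: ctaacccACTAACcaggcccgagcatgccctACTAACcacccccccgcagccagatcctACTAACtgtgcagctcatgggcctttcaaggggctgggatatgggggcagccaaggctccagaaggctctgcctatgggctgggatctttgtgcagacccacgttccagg
MIAT, chr22:27069513-27069681, plus strand, height 159: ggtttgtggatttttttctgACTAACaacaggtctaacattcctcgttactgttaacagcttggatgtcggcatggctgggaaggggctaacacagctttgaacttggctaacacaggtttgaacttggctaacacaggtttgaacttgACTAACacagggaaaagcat
MIAT, chr22:27069448-27069511, plus strand, height 157: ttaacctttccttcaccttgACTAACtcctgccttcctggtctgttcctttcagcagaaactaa
MIAT, chr22:27067945-27068079, plus strand, height 134: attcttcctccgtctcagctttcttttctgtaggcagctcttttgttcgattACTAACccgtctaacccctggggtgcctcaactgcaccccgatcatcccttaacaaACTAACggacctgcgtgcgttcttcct

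The MIAT sequences held from 1 to 3 copies of ACTAAC each, and several held further CTAAC pieces in lower case beside them. The peak in MIR924HG had 2 copies with 3 bases between them. The MFSD14CP peak was 1 of 2 places in the genome with its central 32 nt, so reads from the other copy could have entered it.

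ACTAAC occurred in 132 of the 1508 lncRNA peaks (8.75%, interval 7.43 to 10.3%), beside 10.1% of all nuclear peaks. Windows of the same length on the same strand, 500 nt away, held it far less often, with 25 (1.66%) on the 5′ side and 21 (1.39%) on the 3′ side. In 128 pairs only the peak and in 21 pairs only the 5′ window had the motif, a ratio of 6.10 (exact McNemar test, two-sided, p = 6.5e-20). Toward the 3′ side the pairs numbered 129 and 18 (ratio 7.17, p = 7e-22, exact McNemar test). The motif was thus in the peaks more often than in nearby sequence of the same strand. The windows were not checked for lying in the same transcript or outside other peaks. Of the other forms, the longer TACTAAC was in 65 lncRNA peaks (4.31%, beside 4.67% of all nuclear peaks), the core CTAAC in 247 (16.4%, beside 15.9% of all nuclear peaks) and ACTAAT in 60 (3.98%, beside 4.23%). All 3 are matched on the strand of the peak, and TACTAAC and CTAAC overlap ACTAAC. At least 2 copies of ACTAAC were found in 17 lncRNA peaks (1.13%, beside 0.783% of all nuclear peaks).

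Against the 22511 other nuclear peaks, of which 2283 (10.1%) held ACTAAC, the odds ratio was 0.853 (95% interval 0.710 to 1.02, Fisher's exact test, two-sided, p = 0.085, adjusted p = 0.13 over 3 comparisons). The difference did not pass the threshold, and the interval leaves room for odds in lncRNA peaks from about 0.710 of those elsewhere to slightly above them. All 1508 lncRNA peaks, exonic ones included, were also set against intronic peaks of protein-coding genes (1810 of 16715, 10.8%). The odds ratio was then 0.792 (Fisher's exact test, adjusted p = 0.017). Against all peaks of protein-coding genes it was 0.824 (Fisher's exact test, adjusted p = 0.053). Against the other nuclear peaks, with peaks within 100 nt of each other merged, it was 0.762 (Fisher's exact test, adjusted p = 0.0075). Exonic lncRNA peaks held the motif in 32 of 355 cases (9.01%) and intronic ones in 100 of 1153 (8.67%), an odds ratio of 1.05 (95% interval 0.696 to 1.59, Fisher's exact test, p = 0.83). The intervals of exonic and intronic peaks overlap almost fully, and the data could not show a difference smaller than that range.

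**Figure D1:**
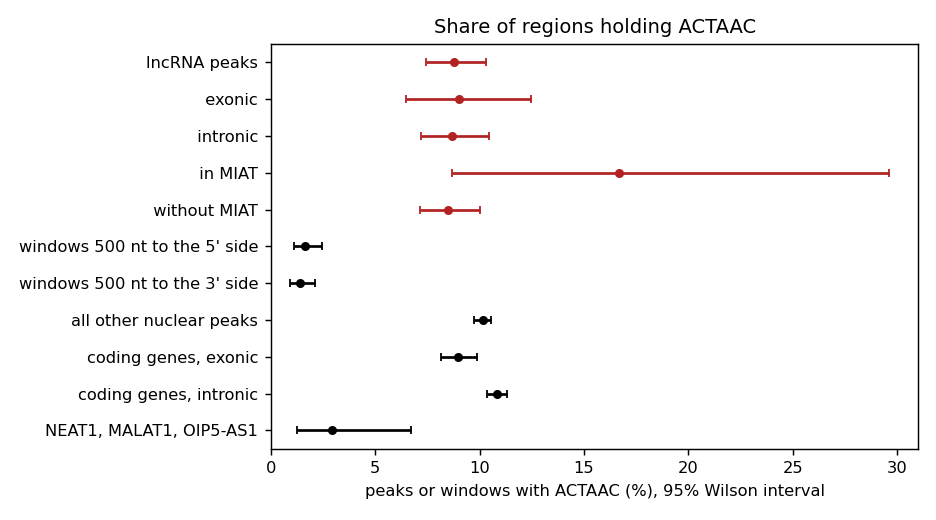
Share of regions that hold ACTAAC on their strand, in percent, for lncRNA peaks and their subsets (red) and for windows and other peaks (black), with 95% Wilson intervals. The lncRNA peaks sit at 8.75%, above both sets of windows (1.66% and 1.39%), and MIAT peaks have the widest interval because there are only 48.

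The motif also lay close to the middle of the peaks. Within 250 nt of the 1508 centres there were 449 ACTAAC sites on the strand of the peak, of which 124 (27.6%, interval 23.7 to 31.9%) had their start at most 25 nt from it, against 10.2% for sites spread evenly (binomial test, two-sided, p = 3.1e-25). On the opposite strand, which the crosslinked RNA does not carry, there were only 98 sites in the same windows, and 9 of them (9.18%, p = 0.87, binomial test) were that close. Without MIAT the share near the centre was 29.9% (119 of 398 sites). The fullest 10-nt bin, just 5′ of the centre, held 37 sites, and the next bin 5′ of it 33. Where peaks stand near each other their windows overlap, so 1 site can count for more than 1 peak. With 1 peak per gene, here and below the tallest of each gene, the call stayed the same.

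**Figure D2:**
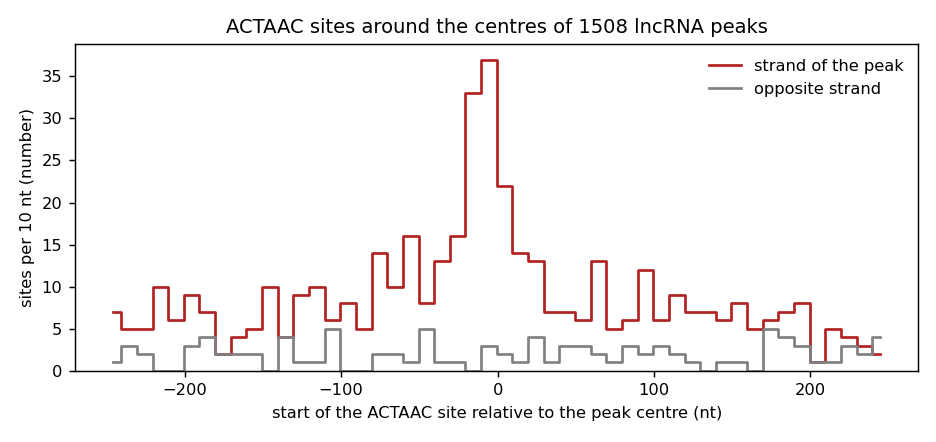
Number of ACTAAC sites per 10 nt (vertical axis) by the distance of the site's start from the peak centre in nt (horizontal axis), summed over the 1508 lncRNA peaks, on the strand of the peak (red) and on the opposite strand (grey). The red line rises to 37 sites next to the centre, while the grey line has no such rise.

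The peaks were unevenly spread over genes. Of the 461 genes, 262 had 1 peak, 173 had 2 to 9 and 26 had 10 or more, and those 26 held 709 of the peaks (47.0%). PVT1, MIR924HG, FTX and MIAT, the 4 genes with the most, held 342 (22.7%). The long genes of this group were bound mostly in introns, whereas all peaks of MIAT were exonic. By name, 19 of 83 annotated microRNA host genes (22.9%) had a peak, beside 2.46% of all lncRNA genes. This was the highest share of any class of names, with gene length not taken into account. The host genes held 324 peaks, 17 of them with ACTAAC (5.25%, interval 3.30 to 8.24%), beside 8.75% of all lncRNA peaks and 10.1% of all nuclear peaks. Genes with an antisense, overlapping or intronic name held 256 peaks, 32 with ACTAAC (12.5%, interval 9.00 to 17.1%), and LINC genes held 157, 19 with ACTAAC (12.1%, interval 7.89 to 18.1%). The intervals of these 2 classes include the 10.1% of all nuclear peaks. The intervals of the microRNA hosts and the antisense class do not overlap, but 3 genes, MIR924HG, FTX and DLEU2, hold most of the host peaks, so the class value is largely theirs. Only 8 peaks lay in small nucleolar RNA host genes.

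**Figure D3:**
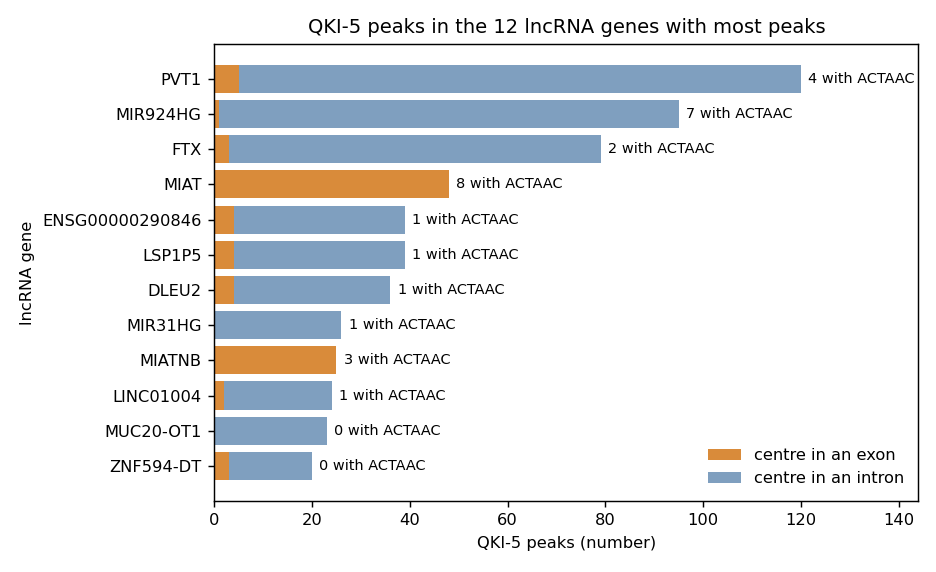
Number of QKI‐5 peaks (horizontal axis) in each of the 12 lncRNA genes with the most peaks, split by whether the peak centre lies in an exon of any transcript (orange) or in an intron (blue), with the number of peaks holding ACTAAC beside each bar. PVT1 leads with 120 peaks, nearly all blue, and the 48 peaks of MIAT are all orange. ENSG00000290846 and LSP1P5 share the same 39 peaks, and all 25 MIATNB peaks are also MIAT peaks. Most MIATNB peaks lie in introns of MIATNB and are orange because of exons of MIAT.

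MIAT (ENSG00000225783.9_12, chr22:27042375-27072438, plus strand), a nuclear lncRNA first found through a myocardial infarction locus, was the most densely bound of the leading genes. It had 48 peaks in 30064 nt, or 1.60 per kb, against 0.306 per kb in PVT1, 0.160 in MIR924HG and 0.224 in FTX. All 48 lay between 20394 and 29760 nt from the 5′ end of the gene, and 47 lay in the long exonic stretch that opens at 21747 nt. The first 20 kb of the gene carried none. Together the peaks covered 5030 nt (16.7% of the gene), and the tightest run, 41 peaks over 5.36 kb, was covered to 84.1%. Its peaks are thus less a set of separate sites than an almost continuous track over the 3′ part of the gene.

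Heights in MIAT ran from 5 to 262 with a median of 44, and 9 of the 51 lncRNA peaks of height 100 or more were in this gene. The 8 MIAT peaks with ACTAAC had heights of 262, 223, 200, 159, 157, 134, 75 and 65, with a median of 158. The 40 without it had a median of 36 and reached at most 157, so the ranges overlap, but the tallest 4 peaks of the gene all carried the motif. Of the 19 ACTAAC sites in the gene on its strand, 13 (68.4%) lay inside peaks. All 13 were among the 14 exonic sites (92.9%, interval 68.5 to 98.7%), and none of the 5 intronic sites was in a peak (upper bound 43.4%). In the exons of the other lncRNA genes with peaks, 26 of 413 sites (6.30%) lay in a peak, and in their introns 112 of 5312 (2.11%). Those genes were taken because they had a peak, the sites of MIAT stand close together, and RNA levels are not in the list, so these shares are given as a description.

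**Figure D4:**
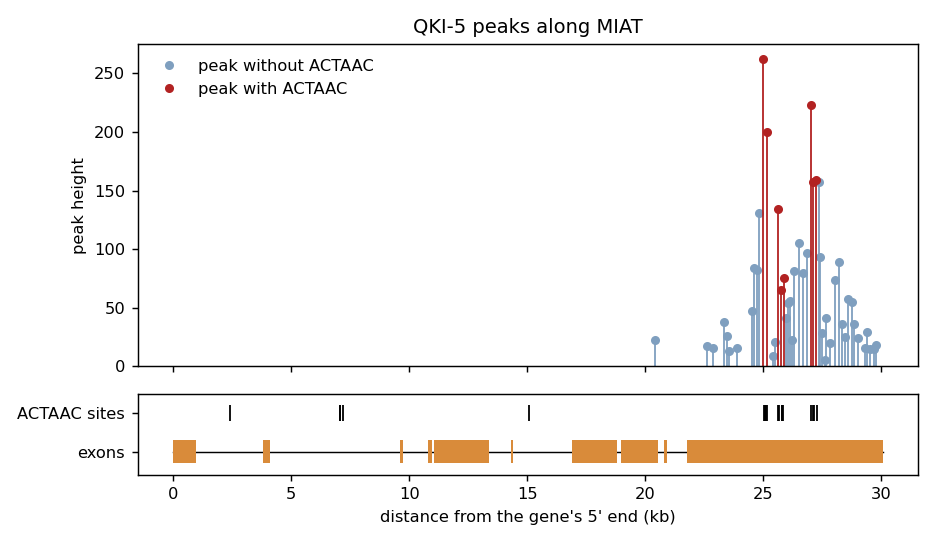
Top, height of each of the 48 QKI‐5 peaks in MIAT (vertical axis) by its distance from the gene's 5′ end in kb (horizontal axis), with peaks holding ACTAAC in red and the others in blue. Bottom, the exons of all its annotated transcripts (orange) and the 19 ACTAAC sites (ticks). The peaks crowd into the last long exonic stretch, where the red peaks stand at 65 to 262, and the sites nearer the 5′ end have none.

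The exonic share of the lncRNA peaks moved with the genes and gene models used. In all, 355 of 1508 lncRNA peaks (23.5%, interval 21.5 to 25.7%) had their centre in an exon of any transcript, beside 20.1% of peaks in protein-coding genes (odds ratio 1.23, 95% interval 1.08 to 1.39, Fisher's exact test, two-sided, p = 0.0015, adjusted p = 0.0044). Exons took up 7.41% of the span of the lncRNA genes with peaks and 7.27% of that of the protein-coding genes with peaks. Without MIAT the odds ratio was 1.06 (307 of 1460 peaks, Fisher's exact test, adjusted p = 0.38), and with 1 peak per gene it was 1.22 (adjusted p = 0.13). Without PVT1, MIR924HG and FTX as well as MIAT it was 1.37 (Fisher's exact test, adjusted p = 3e-05), and the 3 genes besides MIAT had 5, 1 and 3 exonic peaks. With exons of basic or canonical transcripts only it rose to 2.01 (Fisher's exact test, adjusted p = 6.9e-23). In MIAT, 3 of the 48 peaks lay in exons of its Ensembl canonical transcript and the others in exons of other transcripts.

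The 1153 intronic lncRNA peaks were also described by their distance from exons. The median distance to the nearest exon of the gene was 2947 nt, and 2118 nt for the 16715 intronic peaks of protein-coding genes. Within 250 nt of an exon there were 79 (6.85%, 46 downstream and 33 upstream of the exon), against 2033 (12.2%) in protein-coding genes (odds ratio 0.534, 95% interval 0.423 to 0.674, Fisher's exact test, p = 1e-08, adjusted p = 1.3e-08 over 4 comparisons added after the data were seen). Intron makeup moved the same way, with 4.42% of the intron length of the lncRNA genes and 7.10% of that of the protein-coding genes within 250 nt of an exon. The part of intron makeup in the difference was not tested. In both groups the share of peaks within 250 nt of an exon was above the share of intron length there. With 1 peak per gene the odds ratio was 0.816 (Fisher's exact test, adjusted p = 0.29), and the difference no longer passed the threshold. Over 5000 nt from any exon lay 440 of the intronic lncRNA peaks (38.2%) and 32.2% of the coding ones.

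PVT1 (ENSG00000249859.14_10), a lncRNA gene next to MYC, held the most peaks, 120 over a gene of 392576 nt, of which 5 were exonic. Its heights ran from 6 to 111 with a median of 19.5, below the median of 23 over all nuclear peaks. Only 4 PVT1 peaks (3.33%) held ACTAAC, with heights of 111, 38, 26 and 10, and the tallest peak of the gene was among them. The peaks came in tight groups, the longest being 14 intronic peaks within 1.83 kb with heights of 6 to 50 and no ACTAAC. Beyond 294928 nt from the 5′ end no PVT1 peak was found.

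MIR924HG, named as the host gene of a microRNA and lying on chromosome 18 (ENSG00000267374.3_14), held 95 peaks over 593406 nt, of which 1 was exonic. Their heights ran from 10 to 252 with a median of 24. Its 7 peaks with ACTAAC had heights of 252, 37, 27, 27, 23, 23 and 18, so 1 of them was the tallest of the gene and the other 6 were ordinary. Of the 91 ACTAAC sites in the gene, 8 (8.79%) lay in peaks. No microRNA gene of the annotation lay inside it on hg19, and distances to one were not computed for it.

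FTX (ENSG00000230590.13_12), a lncRNA gene of the X-inactivation centre that hosts several microRNAs, held 79 peaks, 3 of them exonic, with heights of 12 to 155 and a median of 26. A single intronic stretch, chrX:73488139-73492572 on the minus strand, held 28 of them over 4.43 kb, beginning 20838 nt from the 5′ end. Peaks covered 49.1% of that stretch, their heights ran from 13 to 155 with a median of 35.5, and none held ACTAAC. Outside it the 2 FTX peaks with ACTAAC had heights of 27 and 29. By number of peaks this was the longest intronic run in any of the lncRNA genes, although shorter runs in PVT1, LINC00630 and MIR222HG were covered more fully. Its neighbour JPX, also of the X-inactivation centre, had 17 peaks with heights of 9 to 40, and 1 held ACTAAC.

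DLEU2, the host of 2 annotated microRNA genes on chromosome 13, held 36 peaks, 4 of them exonic, with a median height of 25.5. A run of 10 intronic peaks over 1.60 kb (chr13:50615682-50617285) held its tallest ones, of heights 158, 145, 93, 84 and 67, and the only ACTAAC peak was the one of 93. MIR31HG on chromosome 9 held 26 intronic peaks with a median height of 29.5, and its tallest, of height 106 and with 2 copies of ACTAAC, lay 6082 nt from the 5′ end. MIR222HG held 19 peaks within 25040 nt (0.759 per kb), of which 1 had ACTAAC, at the only such site in the gene. How much of the host genes lies near a microRNA gene was not computed, so the counts that follow have no background. In the 16 host genes with a microRNA gene inside, 20 of 226 peaks were within 1000 nt of one, 11 of these in MIR493HG and 4 in MIRLET7IHG, and 2 overlapped one.

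**Figure D5:**
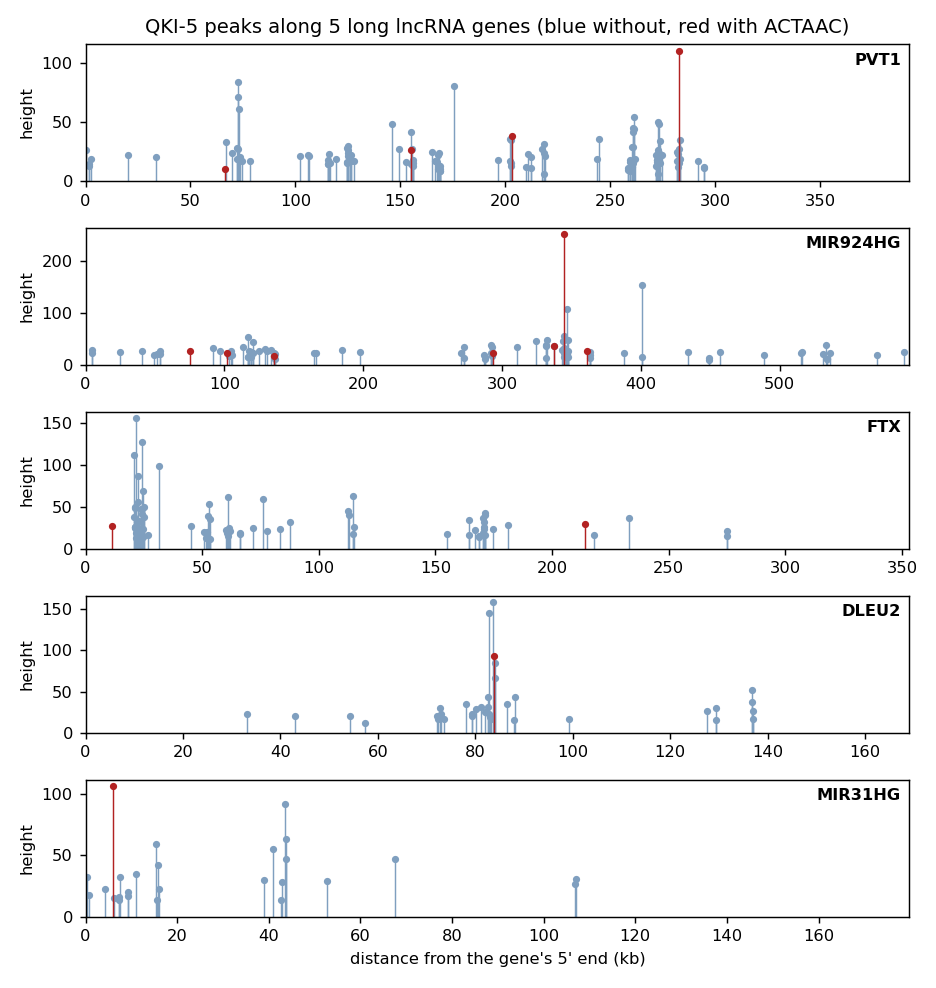
Height of each QKI‐5 peak (vertical axes, scaled per gene) by its distance from the gene's 5′ end in kb (horizontal axes) along PVT1, MIR924HG, FTX, DLEU2 and MIR31HG, with peaks holding ACTAAC in red and the others in blue. Peaks stand in groups along each gene, the largest by number in FTX with 28 peaks over 4.43 kb, and the tallest peak is red in PVT1, MIR924HG and MIR31HG but not in FTX or DLEU2.

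Runs of close peaks were found in other lncRNA genes as well. With centres at most 500 nt apart, 25 genes had a run of 5 or more. Some of these genes overlap and share their peaks, as MIAT and MIATNB do, so these are not 25 separate places. In LINC00630 on chromosome X, 6 intronic peaks covered 87.5% of 0.673 kb, and 3 of them held ACTAAC, with heights of 60, 15 and 11. KCNQ1OT1, the antisense transcript of an imprinted domain on chromosome 11, had 9 of its 10 peaks in 1.29 kb, with heights of 15 to 72, and 2 of its peaks held ACTAAC. LSP1P5 and ENSG00000290846 overlap on chromosome 2 and share 39 peaks, 13 of which had central sequence that occurs elsewhere in the genome, so their assignment is uncertain. Across all lncRNA peaks, another peak stood within 100 nt of 32.6% and within 1000 nt of 61.1%, beside 33.3% and 62.7% of the other nuclear peaks.

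Repeated motifs in low peaks were clearest in USP2-AS1 on chromosome 11, whose 3 peaks are shown because they hold 8 of the 41 ACTAAC sites of the gene. They were chosen for display after their values were seen. Each is given 5′ to 3′ on the plus strand, with ACTAAC in capitals.
USP2-AS1, chr11:119360905-119360994, plus strand, height 23: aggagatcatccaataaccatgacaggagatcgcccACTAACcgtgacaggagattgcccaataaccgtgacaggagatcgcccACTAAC
USP2-AS1, chr11:119360996-119361067, plus strand, height 24: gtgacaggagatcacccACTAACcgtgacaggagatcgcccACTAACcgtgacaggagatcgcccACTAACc
USP2-AS1, chr11:119361314-119361384, plus strand, height 14: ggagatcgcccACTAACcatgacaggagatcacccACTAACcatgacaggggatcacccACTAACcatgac

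These 3 intronic peaks were of low to usual height, at 23, 24 and 14. The sequence is a tandem repeat in which a short unit ending in the motif recurs. The central 32 nt of the peak of height 24 occurred at 2 places in the genome, so the placement of its reads is uncertain. LINC00511 had 3 peaks with ACTAAC, all intronic, with heights of 79, 66 and 31. ENSG00000242588 on chromosome 7 had 3 as well, with heights of 48, 15 and 13. In all, 97 lncRNA genes had a peak with ACTAAC, and 24 of them had 2 or more.

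Among 34 lncRNAs known from the literature, 30 were in the annotation as lncRNA genes under the symbol used. Of these, 15 held a peak, beside 2.46% of all lncRNA genes. The list was chosen with earlier results of these data known, so its share is not a rate for lncRNA genes. TUG1, CCAT1, LINC00673 and SPRY4-IT1 were not under that symbol and type. Beside the genes above, peaks were found in MEG3 (14, all exonic, highest 69), MIR100HG (16, highest 69), LINC-PINT (12, highest 48), DANCR (2, highest 32), MIR22HG (2, highest 22), CYTOR (1, height 24) and ZFAS1 (1, height 17). In 12 of the 15 genes with peaks, at least 1 held ACTAAC. Over all lncRNA genes with peaks this was 97 of 461, and 262 of the 461 had only 1 peak. The list includes PVT1, FTX and MIAT, with 120, 79 and 48 peaks. No peak lay in NORAD, H19, HOTAIR, HOTAIRM1, GAS5, UCA1, SNHG1, CRNDE, MIR17HG, MIR205HG, ZEB1-AS1, ZEB2-AS1, TGFB2-AS1, GATA3-AS1 or EPB41L4A-AS1. Whether these RNAs were made in the cells cannot be read from the list, so the lack of a peak says nothing of binding where the RNA is scarce.

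Many of the tallest lncRNA peaks had no ACTAAC, although they held it more often than lncRNA peaks did as a whole. The 2 tallest without it are printed 5′ to 3′ on the strand of the peak, with each ACTAA in capitals. The one in ENSG00000290937 holds the related forms ACTAAT and CTAAC.
ENSG00000257657, chr12:45948409-45948450, minus strand, height 949: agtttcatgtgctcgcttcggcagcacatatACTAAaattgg
ENSG00000290937, chr3:197895809-197895922, plus strand, height 231: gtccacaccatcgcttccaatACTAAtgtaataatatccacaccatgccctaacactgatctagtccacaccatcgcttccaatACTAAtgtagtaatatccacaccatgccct

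The tallest of all, of height 949 in an intron of ENSG00000257657 on chromosome 12, lay on RNU6-671P, a copy of the U6 small nuclear RNA. Peaks in SOX2-OT (height 211) and SLC2A1-DT (height 166) lay on the U6 copies RNU6-4P and RNU6-880P. Of the 25 tallest lncRNA peaks, from 149 upward, 6 were in MIAT. ACTAAC was in 7 of the 25, a larger share than the 8.75% of all lncRNA peaks (132 of 1508). Most of these 7 were in MIAT. The central 32 nt of 13 of the 25 occurred more than once in the genome. Others of the 25, such as those of height 155 in FTX and MIR924HG, had unique central sequence, no ACTAAC and no small RNA gene.

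Repeated sequence was more common in lncRNA peaks than in the other nuclear peaks as a whole. The central 32 nt occurred more than once in the genome in 219 of 1508 (14.5%, interval 12.8 to 16.4%) and in 2108 of the 22511 other nuclear peaks (9.36%), an odds ratio of 1.65 (95% interval 1.42 to 1.91, Fisher's exact test, two-sided, p = 6e-10, adjusted p = 1.2e-09). The other peaks were themselves uneven, at 5.58% in introns of protein-coding genes, 13.9% in their exons and 41.1% where no lncRNA or protein-coding gene lay on the strand. At least 10 copies were found for 121 lncRNA peaks (8.02%) and for 5.79% of the others. A copy number of 1 word of 32 nt is a measure of repeats and not of how the reads were placed. With only the 1289 lncRNA peaks of unique central sequence, 127 held ACTAAC, and the exonic odds ratio was 1.19 (Fisher's exact test, adjusted p = 0.055).

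In height the lncRNA peaks were like the rest of the list in their quartiles. The median was 23 (quartiles 18 and 33, range 5 to 949), with the same median and quartiles in the other nuclear peaks, and the median width was 61 nt in both. At or above a height of 23 lay 794 of the 1508 lncRNA peaks (52.7%), beside 53.4% of all nuclear peaks, an odds ratio of 0.968 against the others (95% interval 0.872 to 1.07, Fisher's exact test, two-sided, p = 0.56, adjusted p = 0.56). They differed clearly from the 169 peaks of NEAT1, MALAT1 and OIP5-AS1, which had a median of 277 and of which 165 reached a height of 23 (odds ratio 0.0302, 95% interval 0.0118 to 0.0775, Fisher's exact test, p = 2.3e-37, adjusted p = 9.2e-37). ACTAAC was more frequent in the 1508 than in these 169, where 5 peaks (2.96%) held it (odds ratio 2.88, 95% interval 1.21 to 6.86, Fisher's exact test, p = 0.007, adjusted p = 0.007). Those 169 peaks come from 3 genes and were compared after the data were seen.

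The rule had left out peaks in a protein-coding gene of the strand. Other overlaps were counted for the lncRNA peaks only, without a share over all nuclear peaks. Of the lncRNA peaks, 124 lay in more than 1 lncRNA gene, 235 (15.6%) lay opposite a protein-coding gene and 32 (2.12%) within 5000 nt downstream of the end of one on the same strand, where reads of a transcript running past its end could fall. Leaving out these 32 changed none of the calls above that rested on the planned comparisons.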

How the data were processed

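The authors trimmed the reads with cutadapt 1.3, mapped them to hg19 with TopHat2 2.0.10, collapsed duplicates by molecular barcode, pooled the libraries and called peaks on each strand with MACS2 2.1.1.20160309 against the size-matched input, per the labels and the study's methods. The height of each peak in the deposited list is a signal that the authors made from the pooled libraries with their peak caller, a whole number that is not a read count of any 1 sample. No read depth per library can be taken from it, so precision is given by 95% Wilson intervals over peaks.

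Gene models were those of GENCODE release 44 lifted to GRCh37, and 18 mitochondrial peaks were left out. A peak was exonic when its centre lay in an exon of any transcript of its gene, or of any of its genes where it lay in several. Motifs were matched exactly on the strand of the peak. Repeats were gauged by counting the central 32 nt of each peak on both strands of GRCh37. Shares were compared by Fisher's exact test, two-sided, with 0.5 added to each cell of an odds ratio and Benjamini-Hochberg adjustment over 3 comparisons with other peaks, or over the 4 added later. Paired windows were compared by the exact McNemar test, with the larger p of both sides kept. Positions were compared by a binomial test, two-sided.

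Named genes were the 8 with most peaks, those of the 8 tallest peaks with and without regard to ACTAAC, up to 8 genes with 2 or more ACTAAC peaks, and a list of 34 known lncRNAs. Sequences were those of the 8 tallest peaks with ACTAAC and the tallest without it, of which 1 is not reported here, and those of USP2-AS1. The gene groups, lists and comparisons were chosen with earlier results of these data known. The scripts were tested on simulated data with planted motifs. The work used samtools 1.23.1 and Python 3.11.15 with pysam 0.24.0, scipy 1.17.1, matplotlib 3.10.9, statsmodels 0.14.6 and numpy 2.4.6.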

Additional observations from a re-analysis of the deposited data

How the results depend on the processing

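The pooled list has no replicates, so no library could be left out in turn. No paired analysis was possible because the libraries were pooled before peaks were called. Against flanking windows the ACTAAC ratio stayed above 1 and past the threshold under all 16 alternatives (2.26 with ACTAAT to 16.3 with 1 peak per gene), and the share of sites near the centre stayed past it under all 14 (13.6% within 10 nt to 38.1%). Against other nuclear peaks the odds ratio for ACTAAC kept its direction under 17 alternatives and passed the threshold in 2 of them, 0.792 against introns of protein-coding genes and 0.762 with peaks within 100 nt merged. The exonic odds ratio (1.23) lost its call at 1.22 with 1 peak per gene, 1.06 without MIAT and 1.19 with unique central sequence only, and held it at 1.37 without the 4 genes with most peaks and 2.01 with exons of canonical or basic transcripts. The odds ratio within 250 nt of an exon (0.534) lost its call at 0.816 with 1 peak per gene. The cause of these losses was not tested. The height odds ratio against other nuclear peaks stayed between 0.922 and 1.02 and that of exonic against intronic ACTAAC between 0.651 and 1.28, without a call in either. No 2 peaks of 1 strand overlapped or touched and limiting lncRNA genes to annotation level 1 or 2 changed no value, so those alternatives gave the main values. The alternatives without MIAT, without the 4 genes with most peaks, with unique central sequence and with merging at 100 nt, and the 4 comparisons with NEAT1, MALAT1 and OIP5-AS1 peaks, repeats and intron ends, were chosen after seeing the data.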
